A study of Mus musculus with 18 samples.

Results

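The 10 genes described here are the members of the hedgehog pathway that the array names with the symbols Shh, Dhh, Disp1, Ptch1, Hhip, Cdon, Smo, Gli1, Gli2 and Gli3. They were chosen by symbol from the probe annotation, and they are 10 of 30869 gene symbols, measured by 17 of 45281 probes. The arrays are 18 Illumina MouseWG-6 v2 BeadChips of ESD3 cells, a mouse embryonic stem cell line of strain 129s2/SvPas. Control cells carried a viral shRNA against luciferase. HPRT knockdown cells carried one against HPRT, the purine salvage enzyme hypoxanthine guanine phosphoribosyltransferase, which according to the study's methods was designed on the human gene. Both were measured as undifferentiated cells (ES stage), as spherical neural masses (SNM stage) and after dopaminergic neuronal differentiation (neuronal stage), which makes 6 conditions with 3 arrays each. The ES cells grew on mouse embryo fibroblast feeder cells. Both cell types were transduced, selected with puromycin and differentiated by the same protocol, for which the methods list recombinant Shh and FGF8 among the reagents, so the cells may have met Shh protein that they did not make. The RNA of replicate cultures of a condition was pooled before it was hybridized 3 times. Every SD and every test below therefore covers the error between arrays of the same pool, not the spread between cultures.

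Hedgehog ligands are secreted lipid-modified proteins that Dispatched releases from the cell that makes them. On a receiving cell the ligand binds Patched, helped by co-receptors such as Cdon, and Patched then stops holding back Smoothened. Smoothened acts through the primary cilium on the Gli transcription factors, of which Gli1 and Gli2 act mainly as activators and Gli3 mainly as a repressor. Ptch1, Hhip and Gli1 are themselves classical target genes, and their transcripts are often read as a sign of pathway activity. In the neural tube, Shh from the notochord and the floor plate induces ventral transcription factors and represses dorsal and intermediate ones.

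Levels are given as log2 of the background-corrected, quantile-normalized signal. A probe counts as detected on an array at a detection p-value under 0.05, and the lowest signal that was detected lay between 4.67 and 4.99 on this scale, depending on the array. Calls required a Benjamini-Hochberg adjusted p under 0.05 with limma over all tested probes and a size of at least 1.5-fold, and each gene was represented by its brightest probe. Levels of different probes are not comparable with each other, so only conditions are compared. With 3 arrays against 3 an exact permutation test cannot give a p below 0.1, and the adjusted p-values are those of limma.

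Between 18827 and 22202 probes were detected on each array. The knockdown was present at each stage: Hprt1 lay between 12.004 and 12.07 on the control arrays and between 7.75 and 8.14 on the knockdown arrays at the ES stage, between 11.13 and 11.23 against 9.34 and 9.50 at the SNM stage, and between 11.03 and 11.08 against 6.56 and 6.64 at the neuronal stage. The signal of Hprt1 was thus 94.1%, 70.5% and 95.4% lower in the knockdown cells at the 3 stages. The cultures differed in other cell type markers as well. In neuronal cells the summed deposited signal of 5 skeletal muscle markers was 27447 to 31951 on the control arrays, with all 5 detected, and 361 to 446 on the knockdown arrays, where Myod1, Myog and Ckm were detected on no array. The summed signal of 5 oligodendrocyte markers was 890 to 1069 on the control arrays, where Mog was detected on none, and 27503 to 32553 on the knockdown arrays. That of 5 neuron markers was 5671 to 6866 against 1282 to 1431, with Tubb3 detected on no knockdown array and Snap25 on no array of either. The probe of Tubb3 was near the limit of detection in control cells too, at 5.06 on the log2 scale. Its difference, a bound of at least 1.24-fold, was not called. The 5 ES cell markers remained detected at the neuronal stage, at 8273 to 10468 in control and 4104 to 4220 in knockdown cells, against at least 46739 on every ES array. In such bulk samples, fewer cells of a type and less RNA per cell cannot be told apart.

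The 2 ligands on this list, Shh and Dhh, and the transporter Disp1 stood out in different places. Shh, encoded on chromosome 5, was detected on 0 of 6 ES arrays, and was high in the knockdown SNM cells. The deposited signals of its brighter probe on the control SNM arrays were 103, 103 and 96.3 in the scanner's units, with background included. On the knockdown SNM arrays they were 1868, 1800.3 and 1702. At the neuronal stage they were 143, 127 and 133 on the control arrays and 560.4, 534 and 527 on the knockdown arrays. At both stages every knockdown array lay far above every control array.

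After normalization the level of Shh on the control SNM arrays was 5.77, 5.72 and 5.46, and 10.91, 10.91 and 10.58 on the knockdown SNM arrays. The difference was 5.15 ± 0.12 (standard error) on the log2 scale, or 35.5-fold (adjusted p = 3.2e-14, limma). The deposited control SNM signals given above were not far over the lowest detected ones of their arrays, at 76.2, 71.9 and 75.5. The fold size therefore depends on the background correction. In the neuronal cultures the control arrays were at 6.35, 6.40 and 6.15 and the knockdown arrays at 9.02, 8.95 and 8.76, a difference of 2.61 ± 0.12 or 6.1-fold (adjusted p = 3.1e-11). Shh was therefore higher in knockdown cells at both later stages, with no overlap between the arrays. At the ES stage, where no array detected it, no test was made.

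The second probe of Shh gave the same order. It was detected on 0 of 3 control SNM arrays, at a mean of 4.54 ± 0.03 (SD, n = 3), and was at 9.20 ± 0.18 on the knockdown SNM arrays. Since only a bound exists for the control cells, the knockdown level was at least 21.7-fold higher (adjusted p = 3.1e-15). A bound of this kind sets the bright group against the higher of the dim probe's own signal and the lowest detected signal on each array. In neuronal cells this probe was detected in both cell types and was 2.30 ± 0.09 higher in the knockdown cells (adjusted p = 2.7e-12).

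Dhh, the hedgehog ligand best known from Schwann cells and testis and encoded on chromosome 15, followed another course. Its levels on the control arrays were 5.02, 5.51 and 5.02 in ES cells, 6.39, 6.31 and 5.72 in SNMs and 4.91, 4.84 and 4.78 in neuronal cells. On the knockdown arrays they were 4.82, 4.98 and 4.42, then 6.22, 6.30 and 6.25, then 7.07, 6.95 and 6.70. The SNM arrays of both cell types overlapped, while at the neuronal stage every knockdown array was above every control array. The difference was 0.12 ± 0.18 in SNMs (adjusted p = 0.60) and 2.06 ± 0.18, or 4.18-fold, at the neuronal stage (adjusted p = 4.4e-08). In ES cells it was -0.44 ± 0.18 (adjusted p = 0.12), with 1 of 3 knockdown arrays detecting Dhh. The control neuronal signals were near the limit of detection. Their deposited values were 80.1, 70.5 and 79.5, and the lowest detected signals of these arrays were 75.5, 67.5 and 76.6. On the knockdown neuronal arrays the deposited values were 184.9, 172.4 and 168.4, so the fold size at this stage depends on the background correction. The summed signal of 4 Schwann cell and neural crest markers also differed at the neuronal stage, at 408 to 449 in control and 8365 to 8765 in knockdown cells. Of these markers 2 were tested and only Sox10 was called, against 27.4% of all tested probes. Sox10, which is on the oligodendrocyte list too, was at 13.21 in knockdown and 7.36 in control cells on the log2 scale. Erbb3 was detected on no array of either. The part of Schwann cells and neural crest cells in the level of Dhh was not tested.

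Disp1, the gene for the Dispatched protein that lets the lipid-modified ligand leave the cell, is on chromosome 1. It was at 7.33, 7.50 and 7.43 on the control SNM arrays and at 8.15, 8.22 and 8.10 on the knockdown SNM arrays. It was thus 0.74 ± 0.07 higher, or 1.67-fold, in knockdown cells (adjusted p = 2.2e-07). Without background correction the difference was between 0.55 and 0.58, under 1.5-fold. At the neuronal stage the control arrays were at 7.47, 7.59 and 7.45 and the knockdown arrays at 7.04, 7.08 and 6.94. That difference of -0.48 ± 0.07 had an adjusted p of 1.4e-05 and was below 1.5-fold in size, so it was not called. At the ES stage the difference was 0.06 ± 0.07 (adjusted p = 0.66).

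**Figure D1:**
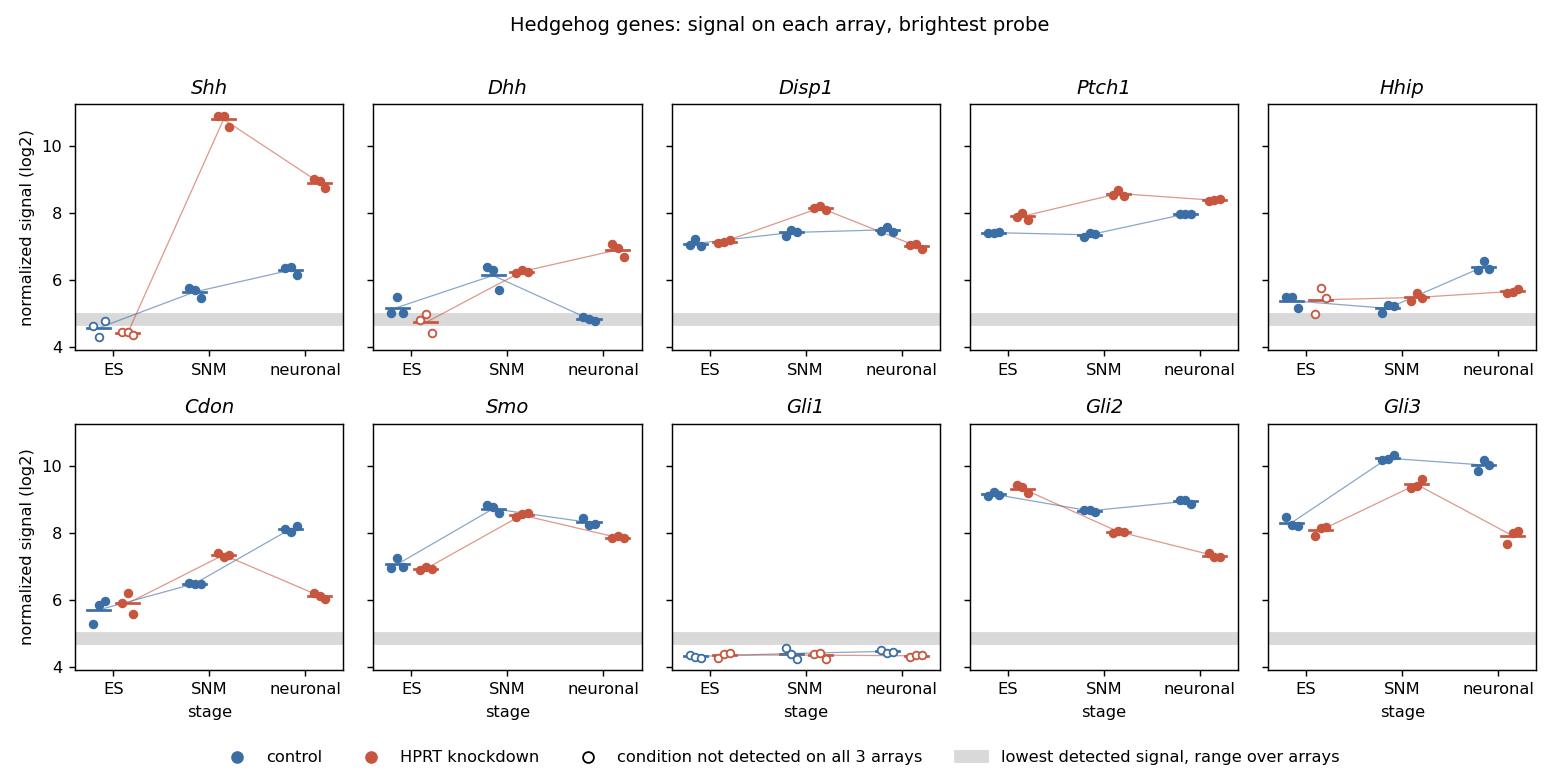
Normalized signal (log2, y axis) of the brightest probe of each of the 10 hedgehog genes on every array, by stage (x axis), for control (blue) and HPRT knockdown cells (red). Short bars are means of 3 arrays, open points belong to conditions not detected on all 3 arrays, and the grey band is the range of the lowest detected signal over the arrays. Shh lies near 10.8 on the knockdown SNM arrays and near 5.65 on the control SNM arrays, and Gli1 lies below the band on every array.

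The proteins that bind the ligand at the cell surface are Ptch1, Cdon and Hhip. Ptch1, the receptor and a feedback target of the pathway, was detected on all 18 arrays by its brighter probe. This probe was at 7.42, 7.41 and 7.43 on the control ES arrays and at 7.88, 8.01 and 7.81 on the knockdown ES arrays. At the SNM stage the levels were 7.29, 7.40 and 7.37 against 8.54, 8.69 and 8.52, and at the neuronal stage 7.97, 7.98 and 7.96 against 8.36, 8.38 and 8.42. Ptch1 was thus above control on every knockdown array of each stage. The difference was 1.23 ± 0.06 or 2.35-fold at the SNM stage (adjusted p = 1.1e-10). It was 0.48 ± 0.06 at the ES stage (adjusted p = 9.0e-05) and 0.41 ± 0.06 at the neuronal stage (adjusted p = 1.6e-05), both below 1.5-fold. The annotation gives this probe no RefSeq accession and no chromosome, so which part of the gene it reads is not known here. The other probe of Ptch1, which carries the RefSeq transcript on chromosome 13, was detected on 4 of 18 arrays and in no condition on all 3, and it was not tested.

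Cdon, an immunoglobulin superfamily co-receptor for hedgehog ligands, changed in opposite directions at the 2 later stages. Its brighter probe was at 6.50, 6.47 and 6.47 on the control SNM arrays and at 7.40, 7.27 and 7.33 on the knockdown SNM arrays, a difference of 0.86 ± 0.15 (adjusted p = 0.00023). In the neuronal cultures the control arrays were at 8.12, 8.02 and 8.20 and the knockdown arrays at 6.21, 6.11 and 6.01, a difference of -2.001 ± 0.15 (adjusted p = 1.3e-08). The arrays of both cell types did not overlap at either stage, and the sign turned between them. In ES cells the arrays overlapped (0.19 ± 0.15, adjusted p = 0.47). The SNM difference fell under 1.5-fold, to 0.55 and 0.57, with quantile normalization or 75th percentile scaling alone. As for Ptch1, this probe has no RefSeq accession in the annotation. The probe on the RefSeq transcript of chromosome 9 was detected on 0 of 18 arrays.

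Hhip, a membrane protein that binds hedgehog ligands and limits their reach, is on chromosome 8 and had a weak signal. In neuronal cells it was at 6.30, 6.58 and 6.34 on the control arrays and at 5.63, 5.64 and 5.73 on the knockdown arrays. The difference of -0.74 ± 0.15 or 1.67-fold was called (adjusted p = 0.00055), but its size fell below 1.5-fold, to between -0.37 and -0.49, in every setting without background correction or with a larger offset. In SNM cells the knockdown arrays, at 5.39, 5.61 and 5.46, were above the control arrays, at 5.01, 5.25 and 5.22, by 0.33 ± 0.15 (adjusted p = 0.084). At the ES stage the difference was 0.03 ± 0.15 (adjusted p = 0.94).

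Smo, the seven-pass protein that Patched inhibits, was detected on all 18 arrays by its brightest probe and is on chromosome 6. It was at 6.94, 7.24 and 6.97 on the control ES arrays and at 6.88, 6.96 and 6.92 on the knockdown ES arrays. At the SNM stage the levels were 8.81, 8.75 and 8.58 against 8.46, 8.54 and 8.57, and at the neuronal stage 8.43, 8.23 and 8.25 against 7.83, 7.90 and 7.83. The cell types overlapped at the ES stage and lay close to each other, without overlap, at the SNM stage. The differences were -0.13 ± 0.08 (adjusted p = 0.36), -0.19 ± 0.08 (adjusted p = 0.063) and -0.45 ± 0.08 (adjusted p = 0.00017), and none reached 1.5-fold. The other 2 probes of Smo gave differences of -0.27 and -0.13 in ES cells, -0.08 and -0.07 in SNMs and -0.37 and -0.24 in neuronal cells.

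Of the 3 Gli factors, Gli1, on chromosome 10, was detected on 0 of 18 arrays. Its condition means lay between 4.30 and 4.46, all below the lowest detected signal. It was not well above background in the knockdown SNM cells either, at 4.39, 4.41 and 4.24, where Shh was highest. With a single probe in the annotation, these arrays give no fold change for Gli1.

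Gli2, on chromosome 1, was lower in knockdown cells at both later stages. In ES cells it was at 9.09, 9.22 and 9.12 on the control arrays and at 9.41, 9.36 and 9.17 on the knockdown arrays, which overlapped (0.17 ± 0.07, adjusted p = 0.11). In SNM cells the levels were 8.66, 8.68 and 8.61 against 7.99, 8.06 and 8.03, and at the neuronal stage 8.97, 8.97 and 8.86 against 7.39, 7.27 and 7.27. The knockdown arrays were below the control arrays with no overlap in both cases. The difference was -0.62 ± 0.07 or 1.54-fold at the SNM stage (adjusted p = 9.2e-07), near the threshold and under it, at -0.51 to -0.56, in 5 other settings, and -1.62 ± 0.07 or 3.08-fold at the neuronal stage (adjusted p = 3.5e-12). The dimmer probe of Gli2 also had lower values in knockdown cells, by -0.40 ± 0.10 at the SNM stage (adjusted p = 0.0032) and -0.41 ± 0.10 at the neuronal stage (adjusted p = 0.0026). At the neuronal stage it was detected on no knockdown array, and the bound it allows is at least 1.04-fold.

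Gli3, on chromosome 13, was also called lower in knockdown cells at both later stages. On the control arrays it was at 8.46, 8.24 and 8.20 in ES cells, 10.16, 10.21 and 10.30 in SNMs and 9.84, 10.18 and 10.03 in neuronal cells. On the knockdown arrays it was at 7.89, 8.15 and 8.16, then 9.32, 9.40 and 9.60, then 7.66, 8 and 8.06. All knockdown arrays lay below all control arrays at each stage. The difference was -0.23 ± 0.12 at the ES stage (adjusted p = 0.23), -0.78 ± 0.12 or 1.72-fold at the SNM stage (adjusted p = 3.9e-05) and -2.11 ± 0.12 or 4.31-fold at the neuronal stage (adjusted p = 2.2e-10). The other probe of Gli3 was dim. It was detected on 7 of 18 arrays, differed by -0.05 ± 0.12 at the SNM stage (adjusted p = 0.73) and was not tested at the neuronal stage. With the mean of both probes the SNM difference was -0.42, under 1.5-fold.

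**Figure D2:**
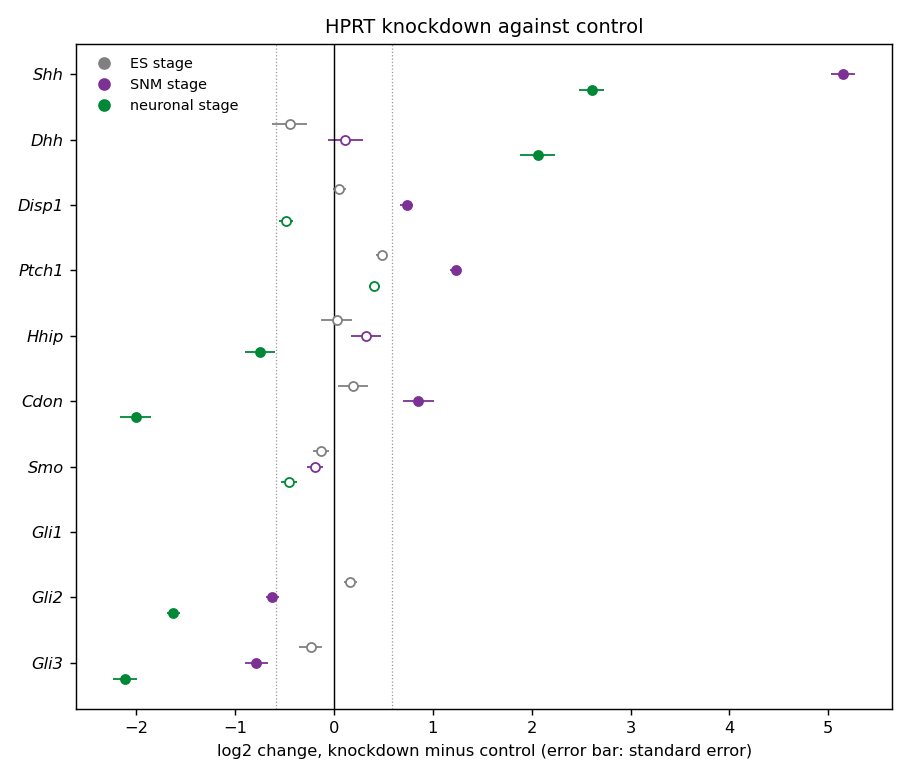
Difference between HPRT knockdown and control cells (log2, x axis, with the standard error) for each tested hedgehog gene at the ES (grey), SNM (purple) and neuronal stage (green). Filled points were called, open points were not, and dotted lines mark 1.5-fold. Shh is 5.15 higher at the SNM stage, Gli2 and Gli3 are lower at both later stages, and Cdon lies on opposite sides of 0 at the SNM and the neuronal stage.

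Counted together at the ES stage, 0 of 8 tested members were called, against 1.68% of all tested probes. By adjusted p alone, without the 1.5-fold threshold, 1 member passed, Ptch1, and 3 had an unadjusted p under 0.05 with limma. The paired and unpaired tests named in the study's methods called 0 with or without adjustment, with the 1.5-fold threshold kept. Since no tested member differed by 1.5-fold at this stage, that 0 follows from the threshold and says nothing of their p-values. At the SNM stage 4 of 9 tested members were called higher (Shh, Ptch1, Cdon and Disp1) and 2 lower (Gli2 and Gli3), against 19.9% of all tested probes called either way, 11% higher and 8.9% lower. In the neuronal cultures 2 were higher (Shh and Dhh) and 4 lower (Gli2, Gli3, Hhip and Cdon), against 27.4% called either way, 13.9% higher and 13.5% lower. The median difference of the tested members was 0.04, 0.33 and -0.48 on the log2 scale at the 3 stages, beside 0.01, -0.04 and 0.01 for all tested probes. The member that no comparison tested was Gli1, and Shh was untested at the ES stage as well.

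The size of the knockdown effect itself differed between stages. From the ES to the SNM stage the effect differed for 5 of 9 tested members (21.3% of all tested probes). It became more positive for Shh, Ptch1, Cdon and Disp1 and more negative for Gli2. From the SNM to the neuronal stage it differed for 8 of 9 (28.6% of all tested probes). It became more positive for Dhh and more negative for Shh, Ptch1, Gli2, Gli3, Hhip, Cdon and Disp1. Smo was the tested member whose effect was called different in neither step, with changes of -0.06 ± 0.12 (adjusted p = 0.71) and -0.26 ± 0.12 (adjusted p = 0.073). For Gli2 both calls rest on its brighter probe. By the dimmer one the effect changed by -0.36 ± 0.14 (adjusted p = 0.058) and by -0.0021 ± 0.14 (adjusted p = 0.99), with no knockdown neuronal array detecting it.

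The course over the stages also differed by cell type. From the ES to the SNM stage, 5 of 9 tested members rose in control cells (Shh, Dhh, Smo, Gli3 and Cdon) and 0 fell, against 49.1% of all tested probes called either way, 23.7% higher and 25.4% lower. In knockdown cells 7 rose (Shh, Dhh, Disp1, Ptch1, Cdon, Smo and Gli3) and 1 fell (Gli2), against 57.3%, 26.4% higher and 30.9% lower. Since Shh was detected on no ES array, its rise is a bound of at least 1.72-fold in control cells and of at least 58.3-fold in knockdown cells. Smo rose by a like amount in both, by 1.66 ± 0.08 in control and 1.60 ± 0.08 in knockdown cells. Gli3 rose by 1.92 ± 0.12 and 1.37 ± 0.12. By its brighter probe Gli2 changed by -0.50 ± 0.07 in control cells, below 1.5-fold, and fell by 1.29 in knockdown cells. Its dimmer probe, detected on all ES and SNM arrays, was called lower in both, by -1.0017 ± 0.10 in control cells (adjusted p = 1.6e-07) and -1.36 ± 0.10 in knockdown cells. The call for Cdon in control cells, 0.78 ± 0.15, was lost without control ES array 1.

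From the SNM to the neuronal stage, 4 members rose in control cells (Shh, Ptch1, Hhip and Cdon) and 1 fell (Dhh), against 29.4% of all tested probes called either way, 14.3% higher and 15.1% lower. In knockdown cells 1 rose (Dhh) and 6 fell (Shh, Disp1, Cdon, Smo, Gli2 and Gli3), against 28.6%, 13.8% higher and 14.8% lower. Shh moved by 0.65 ± 0.12 in control cells (adjusted p = 0.00028) and by -1.89 ± 0.12 in knockdown cells (adjusted p = 1.9e-09). Dhh moved the other way, by -1.30 ± 0.18 in control and 0.65 ± 0.18 in knockdown cells. Cdon rose by 1.63 ± 0.15 in control cells, whereas it fell by 1.22 in the knockdown. Gli3 differed by -0.20 ± 0.12 in control cells (adjusted p = 0.15) and fell by 1.53 in knockdown cells (adjusted p = 1.2e-08). The call for Shh in control cells was lost without control SNM array 3, and that for Dhh in knockdown cells without knockdown neuronal array 1. Comparisons that meet in a condition share its arrays.

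**Figure D3:**
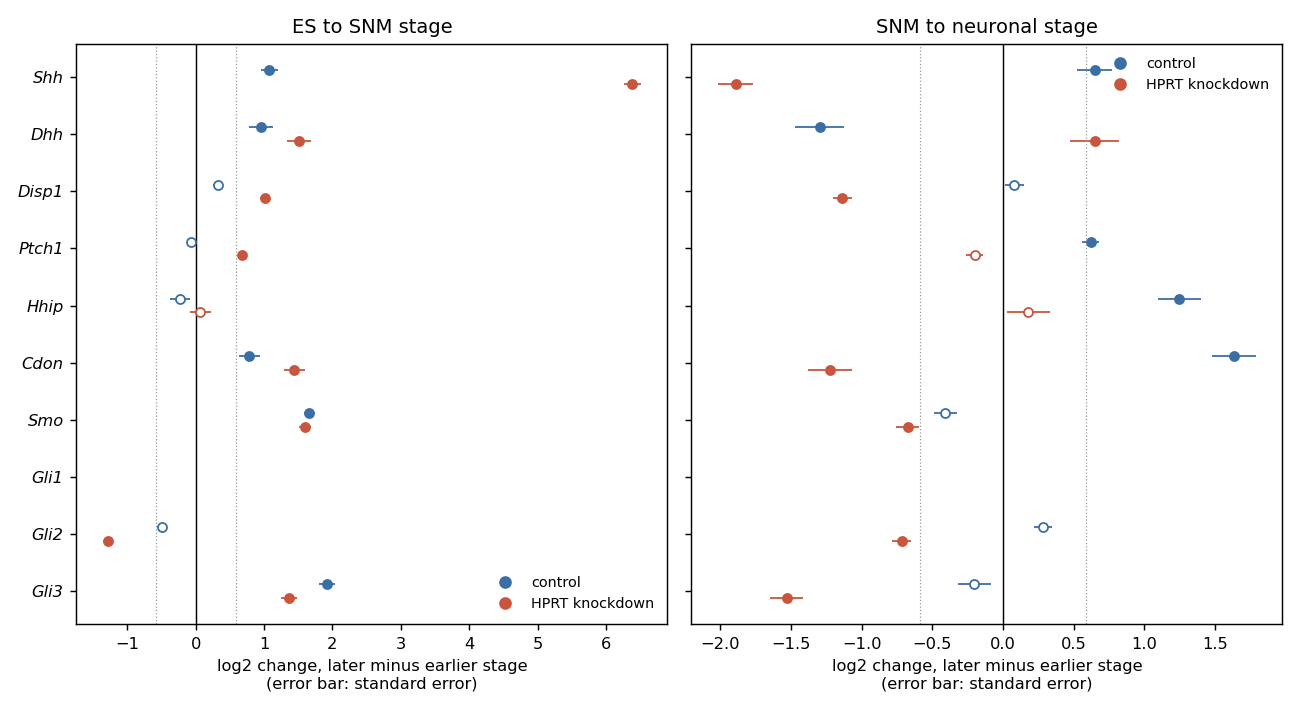
Differences between ES and SNM cells (left) and between SNM and neuronal cells (right) in control (blue) and HPRT knockdown cells (red), as log2 differences with the standard error on the x axis, by gene. Filled points were called, open points were not, and dotted lines mark 1.5-fold. In the right panel Shh, Dhh and Cdon lie on opposite sides of 0 in the 2 cell types, and the fitted ES to SNM change of Shh rests on ES arrays that did not detect it.

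Ordered by level, the 6 conditions gave a different sequence for each gene. For Shh the order was knockdown SNM, knockdown neuronal, control neuronal and control SNM, with each step past the test at an adjusted p of 0.00028 or less, followed by the ES conditions, which were not detected. For Dhh it was knockdown neuronal first, then both SNM conditions, which did not differ beyond their spread (adjusted p = 0.60), and then the control ES, control neuronal and knockdown ES conditions, whose neighbours did not differ either (adjusted p = 0.084 and 0.59). For Disp1 the knockdown SNM cells came first at 8.16 ± 0.06, followed by the control neuronal and control SNM cells, which did not differ (adjusted p = 0.31).

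For Ptch1 the knockdown SNM and knockdown neuronal cells were first, at 8.58 ± 0.09 and 8.38 ± 0.03, a step of 0.20 (adjusted p = 0.0078). The control neuronal and knockdown ES cells came next and did not differ (adjusted p = 0.28), nor did the control ES and control SNM cells at the end (adjusted p = 0.32). For Smo both SNM conditions were first and did not differ (adjusted p = 0.063), and both ES conditions were last. For Gli2 both ES conditions were first and the knockdown neuronal cells last. For Gli3 the control SNM and control neuronal cells were first (adjusted p = 0.15 for the step between them), and the control ES, knockdown ES and knockdown neuronal cells came last without a step that passed (adjusted p = 0.23 and 0.21). Hhip and Cdon were both highest in control neuronal cells, at 6.41 ± 0.15 and 8.11 ± 0.09, and below that level the neighbouring conditions of Hhip did not differ (adjusted p from 0.19 to 0.94).

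Among the genes whose condition means ran most like those of Shh were Nudt4, Slc15a2, Col22a1 and Kcnab1. Their Pearson correlations with Shh over the 6 conditions were 0.996, 0.996, 0.995 and 0.993, among the 5 highest of 12866 probes compared. These are descriptions over 6 points that share their arrays, and the choice of the highest makes them large. Slc15a2, a peptide transporter, was at 6.82 in control and 9.17 in knockdown SNM cells, and Col22a1, a collagen of tissue junctions, at 6.08 and 8.63. Kcnab1, a potassium channel subunit, had a weaker signal, at 4.65 and 5.40.

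The rest of the pathway was described with lists of 69 other genes on the array. Of these, 0 were called higher and 1 lower of 41 tested at the ES stage, 10 higher and 4 lower of 54 at the SNM stage, and 8 higher and 8 lower of 53 at the neuronal stage. Of all tested probes, 1.68%, 19.9% and 27.4% were called either way at these stages, and the counts of the list genes at the later stages are not far from these shares. Among 7 genes for receptors and binding proteins, Boc was not detected on all arrays of any of the conditions compared, and Gas1 was detected on 0 of 3 arrays in each, so the other co-receptors could not be tested. Lrp2 (megalin), an endocytic receptor that binds Shh, differed by 0.37 ± 0.07 at the SNM stage, below 1.5-fold, and was called higher at the neuronal stage by 0.71 ± 0.07 (adjusted p = 5.3e-07). Among 9 genes for making and releasing ligand, Scube3, a secreted protein of the family that helps release it, was 0.61 ± 0.09 higher at the neuronal stage (adjusted p = 1.5e-05). The third ligand, Ihh, was detected on 0 of 6 SNM arrays. It was detected on the knockdown ES arrays, and was called lower from the ES to the SNM stage in knockdown cells.

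The machinery between Smo and the Gli factors was read from a list of 21 genes, which holds Smo. Of 19 tested, 2 were called higher at the SNM stage and 0 lower, against 19.9% of all tested probes called either way: Stk36 (fused kinase) by 0.84 ± 0.15 and Gprasp2, a sorting protein tied to Smo transport, by 0.75 ± 0.07. In neuronal cells 0 of 19 were higher and 2 lower, against 27.4%, the protein kinase A catalytic subunits Prkaca, by -0.93 ± 0.07, and Prkacb, by -0.59 ± 0.13, kinases that prepare Gli proteins for processing. The list's median was 0.03 and -0.17 at these stages. From the SNM to the neuronal stage the knockdown effect itself became more positive for 2 of the 19 (Sufu and Arrb2) and more negative for 4 (Stk36, Prkaca, Prkacb and Gprasp2), against 28.6% of all tested probes. From the ES to the SNM stage in control cells 9 of the 19 rose, Smo among them, and 1 fell, against 49.1%. Sufu, which holds Gli proteins in the cytoplasm, differed by -0.43 ± 0.14 at the SNM stage (adjusted p = 0.015) and was not called. Of the 11 genes for transport in the primary cilium, 0 of 9, 0 of 11 and 0 of 10 tested were called at the 3 stages.

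Transcription factors of the ventral neural tube, which Shh is known to induce, were mostly higher in knockdown cells at the later stages. Of 7 tested, 5 were called higher and 0 lower at the SNM stage, with a median of 1.05, and 5 higher and 0 lower at the neuronal stage, with a median of 2.00, beside -0.04 and 0.01 for all tested probes, of which 11% and 13.9% were called higher. Nkx2-1 and Foxa2 at the SNM stage and Olig2 at the neuronal stage were tested only because the knockdown arrays detected them. These counts and medians are therefore descriptions, and the SNM median is the value of Foxa2. Nkx2-1, a factor of the ventral forebrain, was detected on 1 of 3 control SNM arrays at a mean of 4.71 ± 0.07 and on all 3 knockdown SNM arrays at 10.72 ± 0.03. The control mean was under the lowest detected signals of its arrays, which averaged 4.76, so the knockdown level was at least 61.2-fold higher (adjusted p = 2.5e-19). At the neuronal stage it was 2.76 ± 0.06 higher. Nkx2-2, of the most ventral progenitors and of oligodendrocyte precursors, was 0.64 ± 0.09 higher at the SNM stage (adjusted p = 3.3e-05) and 5.32 ± 0.09 higher at the neuronal stage, at 11.36 against 6.04 (adjusted p = 1.1e-16). Foxa1 was higher by 2.27 ± 0.18 and 2.00 ± 0.18.

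The other members of that list that were called include Nkx6-2, by 1.80 ± 0.16 and 2.00 ± 0.16, and Foxa2, a floor plate factor, by 1.05 ± 0.13 at the SNM stage, at 5.87 against 4.82. Foxa2 was detected on 2 of 3 control SNM arrays, near the limit of detection. Foxa2 and Nkx6-2 are named here for the count, after their values were seen. Olig2, which marks motor neuron and oligodendrocyte progenitors, differed by 0.12 ± 0.10 at the SNM stage (adjusted p = 0.36). In the neuronal cultures it was at 6.70 ± 0.07 on the knockdown arrays and was detected on 1 of 3 control arrays, whose mean of 4.62 was under their lowest detected signals. The bound on its excess in knockdown cells was at least 3.88-fold (adjusted p = 5.8e-11). Nkx6-1 differed by 0.25 ± 0.21 and 0.26 ± 0.21 and was not called. Nkx2-2, Nkx6-2 and Olig2 are also genes of oligodendrocytes or their precursors, and the summed oligodendrocyte markers were higher on the same arrays at the neuronal stage, while at the SNM stage they were lower in knockdown cells, at 1878 to 2403 against 5572 to 6384. The part of oligodendrocytes in these changes was not tested.

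Factors of the dorsal and intermediate neural tube, which Shh is known to repress, were called in both directions. At the ES stage 1 of 4 tested was called lower, Dbx1, against 1.68% of all tested probes called either way. It was at least 1.80-fold lower (adjusted p = 9.3e-06), with 1 of 3 knockdown arrays detecting it. In SNM cells 3 of 6 were lower and 1 higher, and at the neuronal stage 3 of 4 were lower and 1 higher, against 8.9% and 13.5% of all tested probes called lower. The medians were -0.76 and -0.89, and the first was -0.58 with the genes that have a bound set to it. Dbx1, of intermediate progenitors, was lower by -1.46 ± 0.09 at the SNM stage (adjusted p = 2.4e-09) and by -2.81 ± 0.09 at the neuronal stage (adjusted p = 2.2e-13). Pax6 was lower by -0.97 ± 0.16 and -0.62 ± 0.16, and Irx3 by -1.15 ± 0.27 at the neuronal stage. Pax3, a dorsal factor, was detected on all 3 control and 0 of 3 knockdown SNM arrays, which makes it at least 1.46-fold lower (adjusted p = 9.7e-06). The member called in the other direction was Msx1, a dorsal factor that responds to BMP, higher in knockdown cells by 1.48 ± 0.13 at the SNM and by 0.60 ± 0.13 at the neuronal stage.

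**Figure D4:**
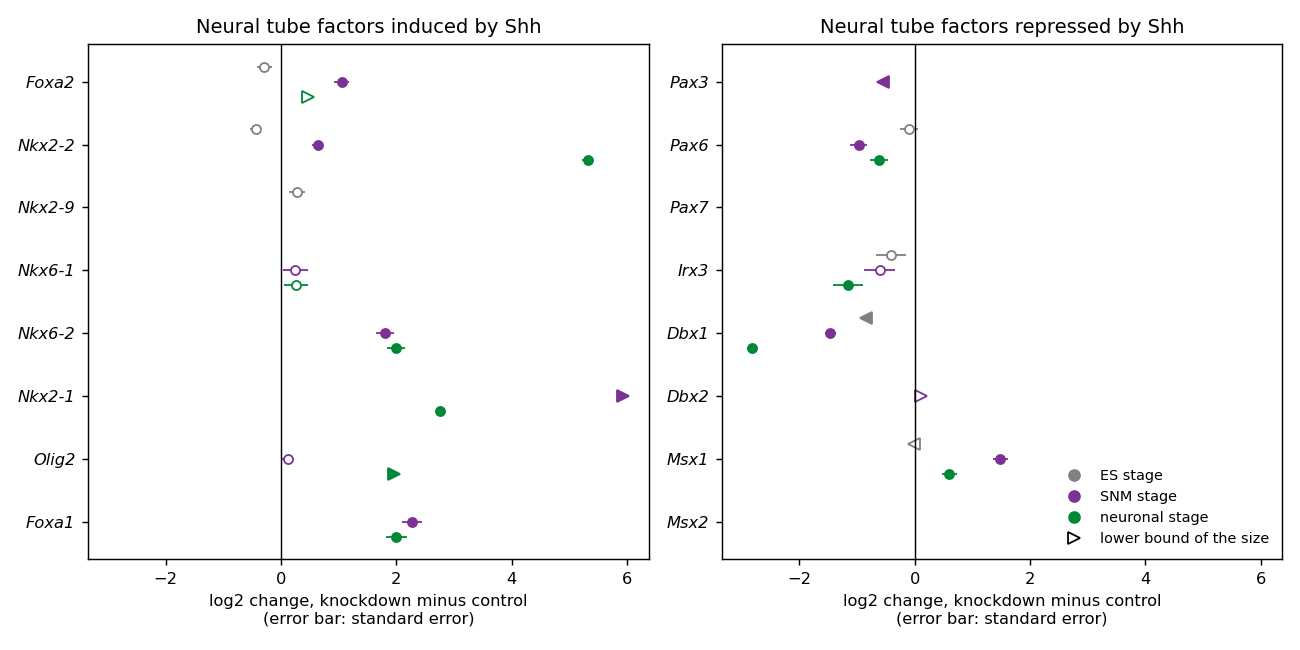
Difference between HPRT knockdown and control cells (log2, x axis, with the standard error) for neural tube transcription factors known to be induced (left) or repressed (right) by Shh, at the ES (grey), SNM (purple) and neuronal stage (green). Filled symbols were called, open symbols were not, and genes without a symbol were not tested. Triangles are lower bounds of the size, drawn where the dimmer condition was not detected on all 3 arrays and its mean was under the lowest detected signals. The bound of Nkx2-1 lies at 5.93 at the SNM stage and Nkx2-2 at 5.32 at the neuronal stage, while Dbx1 lies at -1.46 and -2.81.

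General target genes of the Gli factors, which are not bound to the neural tube, gave counts in both directions. At the SNM stage 2 of 9 tested were higher, the apoptosis inhibitor Bcl2 by 0.83 ± 0.08 and Foxd1 by 0.85 ± 0.09, and 1 was lower, the cell cycle gene Ccnd1 by -0.63 ± 0.06, against 11% of all tested probes called higher and 8.9% lower. In neuronal cells 0 of 10 were higher and 3 lower, against 13.9% and 13.5%: Foxc2, a mesenchymal factor, by -2.38 ± 0.10, the Wnt antagonist Sfrp1 by -1.26 ± 0.08 and Nr2f2 by -1.08 ± 0.23. The list's median was 0.43 and -0.24 at these stages. At the neuronal stage the summed signal of 5 fibroblast and mesenchyme markers was 10226 to 11770 in control and 6553 to 8463 in knockdown cells, with all 5 detected in both, and that of the muscle markers differed as given above. The part of mesenchymal and muscle cells in the lower values of Foxc2, Gli2, Gli3, Hhip and Cdon at this stage was not tested.

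Floor plate and notochord cells are the classical sources of Shh. Without Shh itself, the 4 other markers (Foxa2, T, Noto and Spon1) summed to 802 to 824 on the control SNM arrays and to 3123 to 3703 on the knockdown SNM arrays, with Noto detected on no array of either. In the neuronal cultures the sums were 492 to 628 and 1853 to 2075. T (Brachyury), a gene of notochord and early mesoderm, was 3.42 ± 0.11 higher at the SNM stage and 4.24 ± 0.11 higher at the neuronal stage. On the knockdown SNM arrays T was at 11.35, Spon1 at 9.40 and Foxa2 at 5.87 on the log2 scale. The knockdown SNM sum therefore rests mainly on T, which was at 7.92 in control SNM cells. Spon1 (F-spondin), secreted by the floor plate, was 1.19 ± 0.09 and 1.79 ± 0.09 higher. Foxa2 was called higher at the SNM stage, while at the neuronal stage it was at 5.22 against 4.69 and was not called. From the SNM to the neuronal stage the knockdown effect became more positive for T and Spon1 and more negative for Shh. The part of such cells in the level of Shh was not tested.

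Promoters were read for the letters that Gli proteins bind. The windows run from 250 bases before to 50 bases after a gene's start (RefSeq, GRCm38.p6), and 8 of the 10 members have 9 windows in the table. Shh and Gli1 have none in it. The sequence GACCACCCA was searched on both strands and was in 0 of 9 member windows. It was in 0 of 73 windows of 61 pathway genes, members included, and in 83 of 32851 windows in all (0.253%). Its inner letters ACCACCC, which every match of the longer sequence also holds, were in 1 member window and in 1514 of all windows (4.61%). That member window was also the only match among the 73 pathway windows. The match lies on the opposite strand upstream of Gli2, whose transcript was lower in knockdown cells at both later stages. It starts at -205 from the gene's start, and is shown here within 30 bases at chr1:119053806-119053835 on the minus strand, with the matched letters in capitals.
Gli2: atccccctccaGGGTGGTgtccccccaccc
Such a match is a description of the letters in this window, and their absence from the other windows says nothing of sites elsewhere.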

How the data were processed

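Total RNA, pooled from replicate cultures of each condition, was hybridized to 18 arrays. The authors deposited a signal intensity and a detection p-value for every probe on every array, exported by Illumina's software without normalization. A second deposited table served for probe annotation only, and its 72 columns of per-sample values, named by chip and position, were not used. Groups and array numbers came from the sample titles. Signals were processed with neqc (limma 3.58.1, R 4.3.3; background from the detection p-values, offset 16, quantile normalization, log2). A single limma model over 6 conditions (lmFit, contrasts.fit, eBayes) was fitted to all arrays after the pipeline was tested on simulated data. Probes were tested if detected at p under 0.05 on all 3 arrays of at least 1 compared condition. Calls needed an adjusted p under 0.05 and 1.5-fold. The study's filters on signal percentile and coefficient of variation were not applied.

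The members, gene lists and tests were chosen with earlier results of these data known. Named beside the members were at most 4 called genes of each list with the largest changes, and the 5 genes most correlated with Shh. Some genes of the lists and of that search are not reported here. Further genes named from the lists (Foxa2, Nkx6-1, Nkx6-2, Pax3, Bcl2, Ccnd1, Sufu, Arrb2, Ihh, Boc, Gas1) were chosen after their values were seen. The same search for Gli1 was left out of the text, since no array detected it. The number of arrays per pool limits the precision. Array numbers, taken from the titles, paired the arrays in part: deviations of equally numbered control and knockdown arrays correlated at 0.46, 0.11 and 0.47 at the SNM stage, at 0.57, 0.10 and 0.31 at the neuronal stage and at -0.09, 0.03 and 0.09 at the ES stage. Alternatives changed the background correction, scaling, offset, detection filter, fold threshold, probe choice, arrays in the fit, replicate block, single arrays left out, and the test (the methods' t-tests).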

Additional observations from a re-analysis of the deposited data

Results flagged for a closer look

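The effect of the knockdown was compared between neighbouring stages by a limma test of the difference itself. It differed for 5 of 9 tested hedgehog genes from the ES to the SNM stage, against 21.3% of all tested probes. From the SNM to the neuronal stage it differed for 8 of 9, against 28.6%. Between the ES and the SNM stage the difference between knockdown and control cells shifted by 5.31 for Shh on the log2 scale (adjusted p = 4.6e-12), a fitted value that rests on ES arrays that did not detect it. It shifted by 0.75 for Ptch1 (adjusted p = 3.6e-06), by 0.68 for Disp1 (adjusted p = 4.1e-05) and by -0.79 for Gli2 (adjusted p = 6.3e-06). The dimmer probe of Gli2 gave -0.36 (adjusted p = 0.058), and -0.0021 (adjusted p = 0.99) for the next step. For Cdon it shifted by 0.66 (adjusted p = 0.024), and that call was lost without knockdown SNM array 1, control ES array 2 or 3, or knockdown ES array 3.

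Between the SNM and the neuronal stage the difference became more positive only for Dhh among the members called, by 1.95 (adjusted p = 7.9e-06). It shifted by -2.54 for Shh (adjusted p = 5.9e-09), by -0.82 for Ptch1 (adjusted p = 5.7e-07), by -1.0004 for Gli2 (adjusted p = 1.9e-07) and by -1.33 for Gli3 (adjusted p = 6.3e-06). The shift was -1.07 for Hhip (adjusted p = 0.00068), -2.86 for Cdon (adjusted p = 2.0e-08) and -1.22 for Disp1 (adjusted p = 3.0e-08). Cdon, Disp1 and Hhip had the higher level in knockdown cells at the SNM stage and the lower one at the neuronal stage. The difference of Disp1 at the neuronal stage and that of Hhip at the SNM stage were not called.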

How the results depend on the processing

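The differences of single members between knockdown and control cells kept their direction and side of the thresholds in 514 of the comparisons with an alternative, lost the call in 22, gained it in 4 and turned sign in 6. The turned values were all small and never called: Hhip at the ES stage (-0.013 with 75th percentile scaling, and -0.15 to 0.24 with single arrays left out, below 0 without knockdown array 2 or 3 or control array 3), Cdon at the ES stage (-0.011 to 0.36, below 0 without control array 1) and Dhh at the SNM stage (-0.092 to 0.24, below 0 without control array 3). With no fold threshold 1 member was called at the ES stage, Ptch1. At the SNM stage 2 members were called at 2-fold and 3 with quantile normalization without background correction, with 75th percentile scaling or with the mean of the probes of a gene. In control cells from the ES to the SNM stage, 3 were called at 2-fold, and 2 with quantile normalization alone, 75th percentile scaling, no scaling, an offset of 50 or the adjusted paired t-test, which dropped Shh, Dhh and Cdon. From there to the neuronal stage the control cells had 3 at 2-fold, with 75th percentile scaling, no scaling or an offset of 50, and 1 with quantile normalization alone. The knockdown cells had 4 in that step at 2-fold, with quantile normalization alone or 75th percentile scaling. For the effect at the SNM against the ES stage, 1 was called at 2-fold, 3 with quantile normalization alone, 75th percentile scaling or no scaling, and 2 with the mean of probes. The share of all tested probes called fell as well. With quantile normalization alone it was 9.84% at the SNM stage, against 19.9%. In control cells it was 30.3% from the ES to the SNM stage, against 49.1%, and 16.5% in the next step, against 29.4%. No such share is given here for the 2-fold setting. The cause of the lost member calls was not tested, beyond the stricter threshold of that setting.

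Leaving out each array in turn gave 0 to 0 called members at the ES stage, 6 to 6 at the SNM stage, 6 to 6 at the neuronal stage, 4 to 5 in control cells in each step, 8 to 8 and 6 to 7 in knockdown cells, and 4 to 6 and 8 to 8 for the effects between stages. The arrays that decided a call of Cdon, Shh or Dhh are named above, and for the effect at the SNM against the ES stage Gli3 or Dhh was gained without array 1 of either ES condition or of the control SNM cells, knockdown ES array 2 or knockdown SNM array 3. With the array number as a replicate block, 0, 6 and 6 members were called at the 3 stages, and it changed no other count of members. The t-tests were not run for the effects between stages. Over all probes, 310 were called at the ES stage, and between 0 and 156 in 7 settings that moved this count most. At the SNM stage it was 4127 and between 2044 and 2561 in 6 settings, and at the neuronal stage 5732 and between 3341 and 3484 in 4. The stage comparisons had 10167 and 6088 in control cells (6070 to 6388 and 3419 to 3643), 12292 and 6051 in knockdown cells (7821 to 7907 and 3430 to 3630), and the effects between stages 4721 and 6331 (2260 to 2848 and 3660 to 3819). Each of these ranges includes the setting with the mean of the probes of a gene, which counted genes and not probes. By share, that setting called 1.18%, 16.3% and 23.6% at the 3 stages, against 1.68%, 19.9% and 27.4% of tested probes. From the ES to the SNM stage in knockdown cells it called 51.2%, against 57.3%. With no scaling the median change of all tested probes from the ES to the SNM stage moved from -0.08 to 0.09 in control and from -0.11 to 0.05 in knockdown cells. Signals near background limit what can be said of Gli1, of Shh at the ES stage, of Dhh in control neuronal cells and of the dim probes.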
